A study of Homo sapiens with 2 samples.

Results

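Described here are 30 genes of cholesterol synthesis and handling, taken by symbol from the 36601 genes that each deposited count matrix lists. Each of the 30 symbols was found in both matrices. They were ordered by role, with 19 genes of synthesis in the order of the pathway, 5 genes of SREBP control, 1 gene of sterol transfer, 3 genes of efflux and 2 genes of fatty acid synthesis. The set was named for synthesis and uptake, but it holds no lipoprotein receptor. The member closest to uptake is STARD4, which carries sterol between membranes inside the cell, and uptake receptors are given further on from a separate list.

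Cholesterol is built in the endoplasmic reticulum from acetyl-CoA through mevalonate, isoprenoid pyrophosphates, squalene and lanosterol. When sterol in that membrane is low, SCAP escorts the SREBP transcription factors to the Golgi, where they are cleaved and then turn on the synthesis genes. When sterol is plentiful, INSIG proteins hold SCAP back, and oxysterols activate LXR receptors, which turn on the exporters ABCA1 and ABCG1. Pluripotent stem cells in culture divide fast and make or import sterol for new membranes.

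The 2 groups were ASO_L1, transfected with an oligonucleotide antisense to LINE1 RNA, and SO_L1, transfected with the sense oligonucleotide as its control, with 1 library each. Both used H9, an established human embryonic stem cell line held in the naive state in RSeT medium, so all cells share 1 genotype. In both groups DZNep, a methyltransferase inhibitor, was present at 10 nM and TSA, a histone deacetylase inhibitor, at 5 nM. Both oligonucleotides were given at 25 nM with a fluorescein (6-FAM) label. Both groups also had Trans-ISRIB, an inhibitor of the integrated stress response, at 0.7 µM, emricasan, a caspase inhibitor, at 5 µM and Y-27632, a ROCK inhibitor, at 10 µM until 24 h. At 48 h, 100000 labelled cells per group were sorted and taken to droplet 3' RNA sequencing with a target of 12000 cells, so only cells that took up oligonucleotide were read.

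With 1 library per group there was no replicate check, no test was made, and "higher" and "lower" compare these libraries. A cell entered with 1000 or more detected genes and a mitochondrial share of its UMIs (counted molecules) under 20%. This kept 9084 ASO_L1 cells with a median of 53959.5 UMIs and 6553 SO_L1 cells with a median of 42314 UMIs. Cells were split by mitochondrial share, since it fell into separate ranges. The class below 2% held 2531 ASO_L1 and 1857 SO_L1 cells, with median shares of 0.133% and 0.148%. The class at 2% or more held 6553 ASO_L1 and 4696 SO_L1 cells, with median shares of 7.31% and 8.91%. Of the barcodes kept, 5308 in ASO_L1 and 1062 in SO_L1 were also listed in the other library's matrix, 274 of them passing the filter in both. Those 274 held a median of 126553 UMIs in ASO_L1 and 1792 UMIs in SO_L1. Counts of genes are therefore also given without shared barcodes where that changes them by over 1.5 times.

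Pluripotency markers were present as labelled, and other programmes differed between the groups. The 7 pluripotency markers summed to 2928 CPM (UMIs of a gene per 1000000 non-mitochondrial UMIs) in ASO_L1 and 3269 CPM in SO_L1. The 9 naive markers summed to 811 and 396 CPM, with 8 at least 1.5-fold higher in ASO_L1, and the 10 measured of 11 markers of the 8C stage (8-cell embryo) to 134 and 17.0 CPM, with 10 higher. The 11 stress genes summed to 980 CPM in ASO_L1 and 414 CPM in SO_L1, with 7 higher and 0 lower. Mesendoderm markers summed to 84.1 CPM in ASO_L1 and 16.1 CPM in SO_L1, and endoderm markers to 3.66 and 1.32 CPM. Trophectoderm and amnion markers summed to 7.50 and 4.93 CPM and neural markers to 5.39 and 9.98 CPM. The neural markers went different ways, with HES5 at 0.206 times SO_L1, PAX6 at 1.34 times and SOX1 not measured. Below 2%, the pluripotency markers stood apart more, at 1715 CPM in ASO_L1 and 2709 CPM in SO_L1, with 5 of 7 lower. The 5 fibroblast markers summed to 34.7 CPM in ASO_L1 and 33.1 CPM in SO_L1, with COL1A2, the one with most UMIs, at 0.834 times SO_L1 and COL1A1 at 1.62 times, while LUM had 3 and 0 UMIs and DCN 6 and 2 UMIs. Among all genes, 16.3% were at least 1.5-fold higher and 18.4% lower over all kept cells, and 24.9% were lower below 2%. The part of these programmes in the results below was not tested.

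The promoters of 5 members are shown because the results turn on these genes: SREBF2, the regulator, HMGCS1 and MSMO1, the synthesis genes that stood highest in cells with many synthesis transcripts, INSIG1, whose direction differed between classes, and DHCR7, which differed most between libraries. Each is the RefSeq window (GRCh38.p14) from 250 bases before to 50 after an annotated start, 5′ to 3′ on the gene's strand. SREBF2 lies at chr22:41832855-41833154 on the plus strand, HMGCS1 at chr5:43313363-43313662 on the minus strand and MSMO1 at chr4:165327419-165327718 on the plus strand. INSIG1 lies at chr7:155297628-155297927 on the plus strand and DHCR7 at chr11:71448344-71448643 on the minus strand. Capitals mark CCAAT or its reverse complement ATTGG, the box that NF-Y binds, and in SREBF2 also TCACCCC, letters from the core of a sterol regulatory element. All 5 windows are at a start inside the span that GENCODE gives the gene, and the start used for DHCR7 lies furthest inside.
SREBF2: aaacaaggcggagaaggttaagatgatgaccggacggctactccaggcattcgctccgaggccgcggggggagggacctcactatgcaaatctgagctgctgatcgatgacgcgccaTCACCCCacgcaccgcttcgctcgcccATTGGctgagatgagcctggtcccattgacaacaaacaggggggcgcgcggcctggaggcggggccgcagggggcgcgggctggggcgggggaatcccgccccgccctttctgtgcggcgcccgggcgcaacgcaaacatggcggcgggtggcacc
HMGCS1: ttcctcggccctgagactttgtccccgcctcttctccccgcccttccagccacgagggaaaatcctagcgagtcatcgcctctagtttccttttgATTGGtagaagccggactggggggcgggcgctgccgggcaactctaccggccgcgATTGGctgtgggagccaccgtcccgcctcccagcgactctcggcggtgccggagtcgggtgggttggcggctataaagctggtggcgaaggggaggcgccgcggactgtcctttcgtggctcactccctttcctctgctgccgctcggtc
MSMO1: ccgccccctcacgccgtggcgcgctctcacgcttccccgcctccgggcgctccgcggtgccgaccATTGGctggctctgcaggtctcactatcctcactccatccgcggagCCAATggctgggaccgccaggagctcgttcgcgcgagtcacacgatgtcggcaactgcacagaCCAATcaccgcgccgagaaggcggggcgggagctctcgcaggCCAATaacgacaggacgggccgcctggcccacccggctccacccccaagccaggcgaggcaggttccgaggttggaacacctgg
INSIG1: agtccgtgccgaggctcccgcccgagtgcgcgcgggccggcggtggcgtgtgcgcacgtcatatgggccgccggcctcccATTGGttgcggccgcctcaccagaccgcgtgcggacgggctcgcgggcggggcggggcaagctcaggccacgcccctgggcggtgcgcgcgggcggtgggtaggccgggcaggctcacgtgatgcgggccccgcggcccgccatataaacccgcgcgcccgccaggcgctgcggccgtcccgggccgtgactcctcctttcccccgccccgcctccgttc
DHCR7: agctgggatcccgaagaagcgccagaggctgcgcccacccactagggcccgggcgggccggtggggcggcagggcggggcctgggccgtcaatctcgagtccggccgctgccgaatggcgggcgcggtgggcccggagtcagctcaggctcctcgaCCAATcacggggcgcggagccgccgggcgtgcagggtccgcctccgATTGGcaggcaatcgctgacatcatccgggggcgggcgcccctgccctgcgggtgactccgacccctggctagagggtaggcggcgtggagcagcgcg

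Of the 30 members, 25 had a window in the RefSeq table, and ACAT2, FDFT1, SQLE, ABCG1 and FASN did not. Both strands were searched. CCAAT stood in 16 of 25 member windows and in 35.7% of all 27305 windows. At least 2 copies stood in 11 of the 25 and in 11.3% of all, with 4 copies in MSMO1. The letters TCACCCC stood in the windows of AACS, MVK and SREBF2, 3 of 25, and in 5.17% of all, and the motifs do not overlap in SREBF2. These matches describe letters in a window and not binding.

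Genes of cholesterol synthesis were mostly lower in ASO_L1 than in SO_L1. Over all kept cells, 18 of the 19 stood below their SO_L1 level, though SC5D, at 0.998 (0.969 to 1.03), did not differ within counting error. A gene is called here when it differs at least 1.5-fold and its 95% counting interval leaves out 1. By that rule 8 of 19 were lower and 0 higher, against 18.4% lower and 16.3% higher among all 24917 genes measured (at least 50 UMIs over both sides). Their median log2 ratio was −0.55, and that of all genes −0.04. The 19 genes summed to 944 CPM in ASO_L1 and 1353 CPM in SO_L1, a ratio of 0.698 (95% interval 0.695 to 0.701). Intervals cover counting error only and leave out the spread between cells and between libraries.

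The lower sum appeared in both classes of cells. Below 2% it was 913 CPM in ASO_L1 and 1221 CPM in SO_L1, a ratio of 0.748 (0.741 to 0.755). At 2% or more it was 954 CPM in ASO_L1 and 1393 CPM in SO_L1, a ratio of 0.685 (0.681 to 0.688). Below 2%, 8 of 19 genes were lower and 0 higher, against 24.9% and 23.1% of all genes. At 2% or more, 9 of 19 were lower and 0 higher, against 16.1% and 12.7% of all genes. Without barcodes listed in both libraries, 14 of 19 were lower at 2% or more, against 25.6% of all genes.

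Counting all 30 members, 10 were lower and 0 higher over all kept cells, against 18.4% and 16.3% of all genes. Their median log2 ratio was −0.39. Without shared barcodes, 16 were lower, against 23.2% of all genes in those cells. Below 2%, 9 were lower, near the 24.9% of all genes, and 1 was higher, against 23.1%. The median there was −0.17 against −0.01 for all genes. At 2% or more, 12 were lower and 0 higher, against 16.1% and 12.7% of all genes. The median there was −0.53 against −0.06 for all genes. The members called lower outside synthesis were SREBF2 in both classes, and ABCG1 and FASN at 2% or more.

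**Figure D1:**
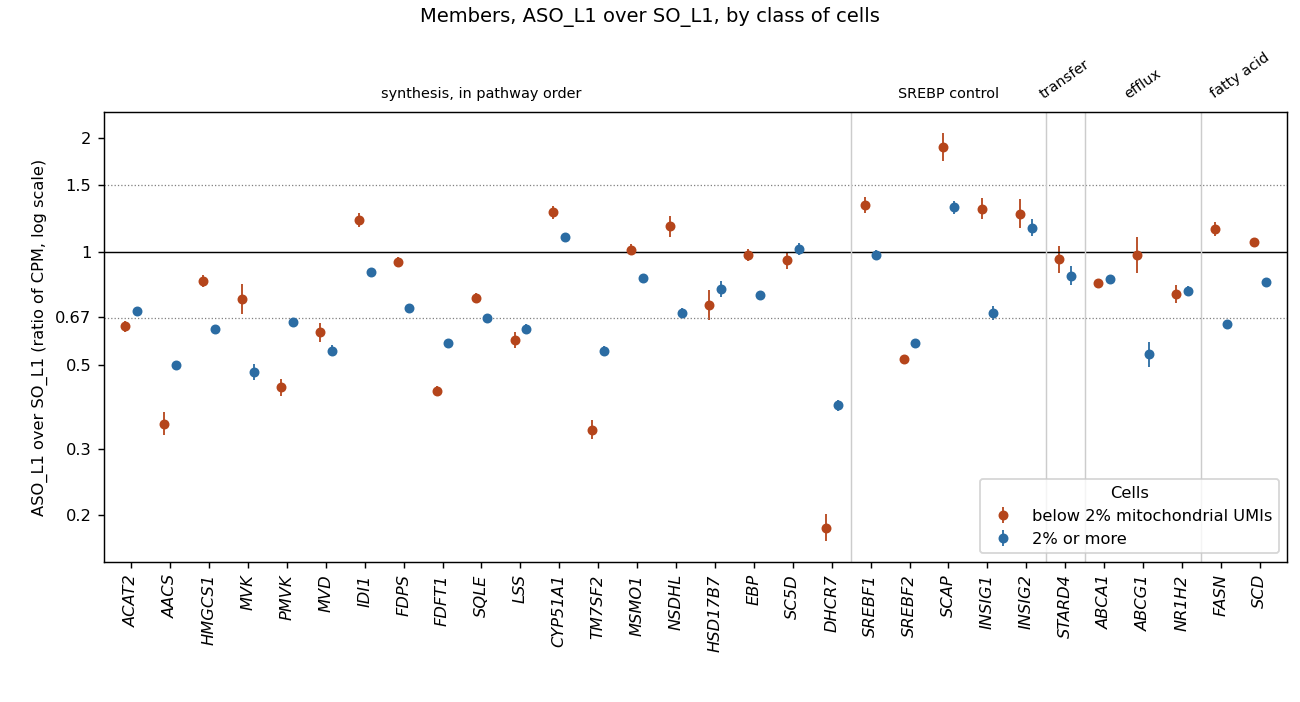
Ratio of ASO_L1 over SO_L1 (log axis) for each of the 30 members, grouped by role, in cells below 2% and in cells at 2% or more mitochondrial UMIs, with 95% counting intervals. DHCR7 lies lowest in both classes, at 0.185 and 0.391. IDI1, MSMO1, NSDHL, SC5D, SREBF1, INSIG1, FASN and SCD lie on opposite sides of 1 in the classes.

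The pathway opens with enzymes that supply and join acetyl units. ACAT2 makes acetoacetyl-CoA from acetyl-CoA and stood at 70.8 CPM in ASO_L1 and 112 CPM in SO_L1 below 2%, and at 82.9 and 119 CPM at 2% or more. Its ratios were 0.634 (0.613 to 0.655) and 0.697 (0.685 to 0.709), so the fold of 1.5 was passed below 2% only. AACS, which activates acetoacetate for lipid synthesis, stood at 11.8 CPM in ASO_L1 and 33.7 CPM in SO_L1 below 2%, and at 26.3 and 52.7 CPM at 2% or more. It was lower in both classes, at 0.350 (0.326 to 0.375) and 0.499 (0.485 to 0.513) times SO_L1.

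HMGCS1 joins acetyl-CoA to acetoacetyl-CoA to give HMG-CoA, the precursor of mevalonate. It stood at 68.3 CPM in ASO_L1 and 81.7 CPM in SO_L1 below 2%, and at 46.1 and 73.9 CPM at 2% or more. The ratio was 0.836 (0.806 to 0.867) below 2% and 0.625 (0.611 to 0.639) at 2% or more, where it was called lower. Without shared barcodes its ratio below 2% was 1.12, on the other side of 1.

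The 3 enzymes that turn mevalonate into isopentenyl pyrophosphate were below SO_L1 throughout. MVK, the kinase of the opening step, stood at 10.1 CPM in ASO_L1 and 13.5 CPM in SO_L1 below 2%, and at 8.80 and 18.4 CPM at 2% or more, ratios of 0.748 and 0.479. PMVK, the next kinase, stood at 24.3 CPM in ASO_L1 and 55.7 CPM in SO_L1 below 2%, and at 30.6 and 47.2 CPM at 2% or more, ratios of 0.436 and 0.648. MVD, the decarboxylase that ends this stretch, had ratios of 0.611 and 0.546. PMVK was the further apart of the kinases below 2% and MVK at 2% or more.

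The branch from isoprenoids to squalene held members with unlike ratios. IDI1, which isomerises isopentenyl pyrophosphate, stood at 69.3 CPM in ASO_L1 and 57.2 CPM in SO_L1 below 2%, and at 55.4 and 62.7 CPM at 2% or more, ratios of 1.21 and 0.883. FDPS makes farnesyl pyrophosphate, and its ratios were 0.939 (0.913 to 0.965) and 0.710 (0.701 to 0.720). FDFT1 commits farnesyl pyrophosphate to squalene. It stood at 64.4 CPM in ASO_L1 and 151 CPM in SO_L1 below 2%, and at 108 and 189 CPM at 2% or more. It was lower in both, at 0.427 (0.414 to 0.441) and 0.570 (0.562 to 0.578) times SO_L1.

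From squalene to lanosterol, SQLE, the epoxidase, had ratios of 0.755 (0.731 to 0.779) below 2% and 0.668 (0.658 to 0.678) at 2% or more, short of the fold in both. LSS, which closes the sterol rings, stood at 30.8 CPM in ASO_L1 and 52.7 CPM in SO_L1 below 2%, and at 24.9 and 39.8 CPM at 2% or more. It was lower in both classes, at 0.584 and 0.624 times SO_L1.

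After lanosterol the members did not move alike. CYP51A1, the demethylase that acts on lanosterol, was the synthesis gene with the highest ratio, at 1.27 (1.22 to 1.32) below 2% and 1.09 (1.07 to 1.12) at 2% or more. TM7SF2, a sterol reductase, stood at 16.5 CPM in ASO_L1 and 49.0 CPM in SO_L1 below 2%, and at 28.3 and 51.8 CPM at 2% or more, ratios of 0.337 and 0.546. These 2 enzymes act one after the other in the pathway, and lay at opposite ends of the range below 2% apart from DHCR7.

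MSMO1, the oxidase that starts removal of the methyl groups at carbon 4, stood at 88.4 CPM in ASO_L1 and 87.5 CPM in SO_L1 below 2%, and at 65.7 and 77.0 CPM at 2% or more. Its ratios were 1.01 (0.977 to 1.05) and 0.853 (0.836 to 0.871). NSDHL, which acts in the same removal, had ratios of 1.17 and 0.687, and HSD17B7, the reductase of that complex, 0.721 and 0.796. None of these 3 was called in either class.

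Of the last steps, EBP, the sterol isomerase, had ratios of 0.980 and 0.767 and SC5D, the desaturase, 0.947 and 1.02, neither called. DHCR7 reduces 7-dehydrocholesterol to cholesterol (chromosome 11, 71428193 to 71452868 on GRCh38, minus strand). It stood at 6.97 CPM in ASO_L1 and 37.7 CPM in SO_L1 below 2%, and at 17.4 and 44.5 CPM at 2% or more. Its ratios, 0.185 (0.170 to 0.201) and 0.391 (0.379 to 0.404), were the lowest of the 30 members in each class, and the intervals of the classes did not overlap. After each cell was thinned to 8000 UMIs, a DHCR7 UMI was found in 5.28% of ASO_L1 cells (4.39% to 6.29%) and 23.6% of SO_L1 cells (21.5% to 25.7%) below 2%. In the other class it was 10.9% of ASO_L1 cells and 26.6% of SO_L1 cells. No cell type in these libraries is known to lack the gene, so the share that free RNA gives was not measured.

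**Figure D2:**
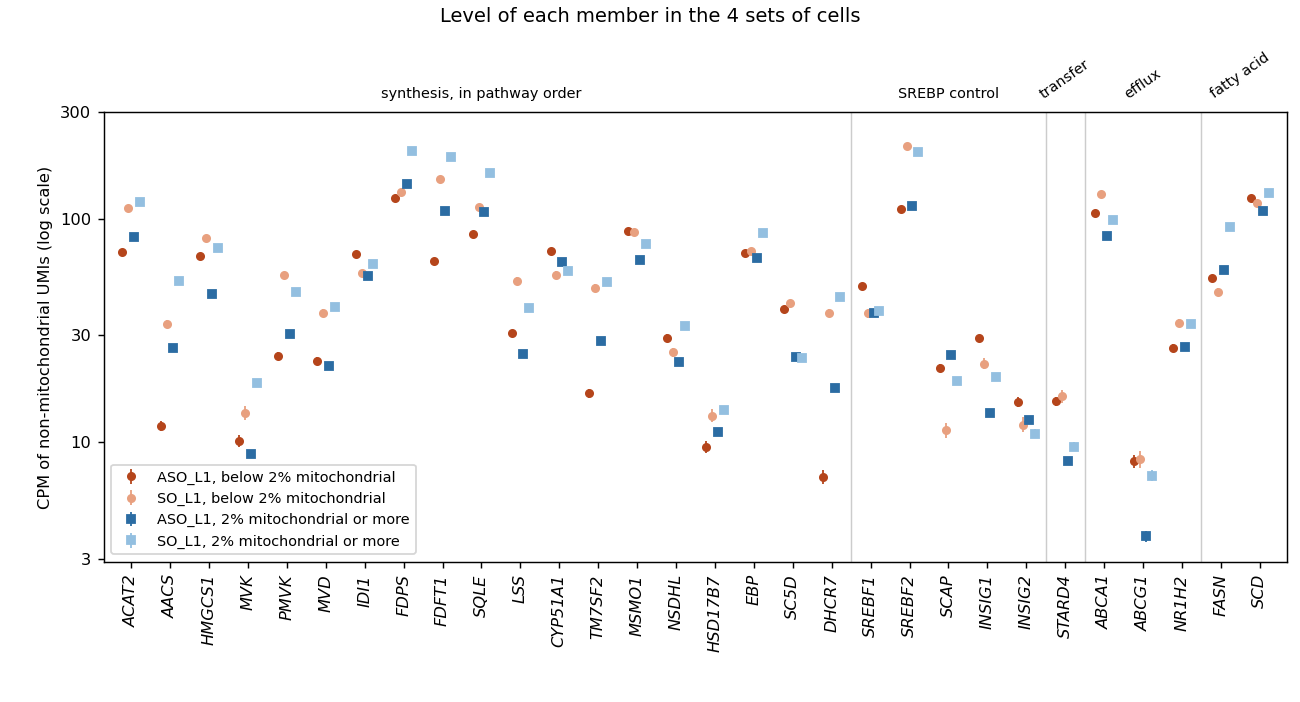
Level of each of the 30 members (CPM, log axis) in ASO_L1 and SO_L1, in cells below 2% and at 2% or more mitochondrial UMIs. DHCR7 stands at 6.97 CPM in ASO_L1 cells below 2%, while its other values lie at 17.4 CPM or more.

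Of the SREBP control genes, the 2 transcription factors differed from each other. SREBF2 encodes SREBP2, the main activator of cholesterol synthesis genes (chromosome 22, 41833079 to 41907308, plus strand). It stood at 110 CPM in ASO_L1 and 212 CPM in SO_L1 below 2%, and at 114 and 200 CPM at 2% or more, ratios of 0.519 (0.506 to 0.532) and 0.571 (0.563 to 0.579). A SREBF2 UMI was found in 50.8% of thinned ASO_L1 cells and 72.8% of SO_L1 cells below 2%. SREBF1, whose product acts more on fatty acid genes, had ratios of 1.33 (1.27 to 1.40) and 0.980 (0.953 to 1.01). The messages of the factors therefore stood apart, and SREBF2 was the one called.

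SCAP, the escort of SREBP, was the member called higher. It stood at 21.4 CPM in ASO_L1 and 11.3 CPM in SO_L1 below 2%, a ratio of 1.89 (1.74 to 2.07), and at 24.5 and 18.7 CPM at 2% or more, a ratio of 1.31 (1.26 to 1.36). INSIG1, which retains SCAP and is itself an SREBP target (chromosome 7, 155297776 to 155310235, plus strand), went in opposite directions. It stood at 29.2 CPM in ASO_L1 and 22.4 CPM in SO_L1 below 2%, a ratio of 1.30 (1.22 to 1.39). At 2% or more it stood at 13.4 CPM in ASO_L1 and 19.6 CPM in SO_L1, a ratio of 0.685 (0.656 to 0.715). INSIG2, the second retention protein, had ratios of 1.26 and 1.16, above 1 in both and called in neither.

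Among transfer and efflux genes, none was called below 2%, with ratios from 0.771 to 0.979. STARD4 stood at 15.2 CPM in ASO_L1 and 16.0 CPM in SO_L1 below 2%, and at 8.21 and 9.53 CPM at 2% or more, ratios of 0.953 (0.880 to 1.03) and 0.862 (0.813 to 0.914). ABCA1, which loads cholesterol onto apolipoproteins, stood at 106 CPM in ASO_L1 and 129 CPM in SO_L1 below 2%, and at 83.9 and 99.1 CPM at 2% or more. Its ratios were 0.824 and 0.847. ABCG1, the exporter to lipoprotein particles, stood at 8.19 CPM in ASO_L1 and 8.36 CPM in SO_L1 below 2%, a ratio of 0.979 (0.877 to 1.09). At 2% or more it stood at 3.77 CPM in ASO_L1 and 7.07 CPM in SO_L1, a ratio of 0.533 (0.494 to 0.575), and was called lower. NR1H2, an LXR receptor that drives both exporters, had ratios of 0.771 and 0.785.

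Of the fatty acid genes, FASN, the synthase, changed side with the class. With shared barcodes left out its ratio below 2% was 0.826, and with each cell weighted alike 0.969, so its side there depended on these choices. It stood at 54.1 CPM in ASO_L1 and 47.2 CPM in SO_L1 below 2%, a ratio of 1.15 (1.10 to 1.20), and at 58.8 and 91.7 CPM at 2% or more, a ratio of 0.641 (0.629 to 0.654). SCD, which desaturates stearoyl-CoA, had ratios of 1.06 (1.03 to 1.09) and 0.832 (0.819 to 0.845) and was called in neither. Reads of some members may be shared with other genes. By GENCODE 29, 15 members overlap a gene on the opposite strand, among them ACAT2, MVK, IDI1 and NR1H2. Whether the counting used strand was not stated in the labels or file headers. AACS, CYP51A1, TM7SF2, EBP, SREBF1, SREBF2 and ABCG1 overlap a gene on their own strand, which is VPS51 for TM7SF2. Strand would not tell such genes apart. AACS, FDPS, CYP51A1, HSD17B7 and SCD have pseudogene copies by name, 8 of them for FDPS, so their values are uncertain.

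Genes next to the pathway were taken from separate lists. Over all kept cells, 16.3% of all genes were higher and 18.4% lower. These shares were 23.1% and 24.9% below 2%, and 12.7% and 16.1% at 2% or more. Of 9 other fatty acid genes, 4 were lower over all kept cells and 0 higher: ME1, the malic enzyme that supplies NADPH, at 0.355 times SO_L1, ELOVL6, an elongase, at 0.608, FADS1, a desaturase, at 0.653 and ACSS2, which activates acetate, at 0.657. Below 2%, 3 were lower and 1 higher, LPIN1 at 1.70, and at 2% or more 3 were lower and 0 higher. ACACA, the carboxylase that makes malonyl-CoA, stood at 201 CPM in ASO_L1 and 274 CPM in SO_L1, a ratio of 0.732. Of 9 genes that use isoprenoids, 1 was higher, RABGGTB of Rab prenylation at 1.77, and 1 lower, PDSS2 of coenzyme Q synthesis at 0.603, and FNTA, a farnesyltransferase subunit, stood at 1.07. Below 2%, 1 isoprenoid user was higher and 2 lower, and at 2% or more 1 was higher and 1 lower. The isoprenoid users summed to 393 CPM in ASO_L1 and 396 CPM in SO_L1, close to each other where the synthesis genes were not.

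Of 8 other genes of SREBP processing, 3 were higher and 0 lower over all kept cells, against 16.3% and 18.4% of all genes. Below 2%, 3 were higher and 1 lower, against 23.1% and 24.9%. At 2% or more, 1 was higher, near the 12.7% of all genes, and 0 lower, against 16.1%. Among the genes higher over all kept cells were PAQR3, which tethers SCAP to the Golgi, at 1.99, and RNF139, a ubiquitin ligase, at 1.59. The proteases that cleave SREBP, MBTPS1 and MBTPS2, stood at 0.937 and 0.869, and MBTPS2 was the gene lower below 2%, at 0.655. Of 11 genes of uptake and sterol handling, 0 were called in either direction over all kept cells and at 2% or more, and 1 was lower below 2%. LRP8, a lipoprotein receptor, stood at 21.4 CPM in ASO_L1 and 30.4 CPM in SO_L1, a ratio of 0.706 (0.685 to 0.727), and was the one lower below 2%, at 0.593. NPC2, which moves cholesterol out of lysosomes, stood at 150 and 117 CPM, a ratio of 1.28, and MYLIP, a ligase that degrades lipoprotein receptors, at 0.932.

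Within a library, the classes were then set against each other. In ASO_L1, 4 of 30 members were higher below 2% than at 2% or more and 4 were lower, against 28.3% higher and 12.2% lower among all genes. In SO_L1, 2 were higher and 4 lower, against 21.1% and 6.23%. Scaling by TMM, which matches the bulk of genes, would take 0.21 off these log2 ratios in ASO_L1 and 0.16 in SO_L1. The median of the members was 0.12 in ASO_L1 and −0.08 in SO_L1, against 0.17 and 0.11 for all genes.

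The genes higher in the class below 2% of ASO_L1 were SC5D at 1.64, INSIG1 at 2.17 (2.08 to 2.27), STARD4 at 1.86 and ABCG1 at 2.17 (2.00 to 2.36). In SO_L1, SC5D at 1.76 and STARD4 at 1.68 were higher, while INSIG1 stood at 1.14 and ABCG1 at 1.18. The lower genes were AACS at 0.448, FDFT1 at 0.596, TM7SF2 at 0.582 and DHCR7 at 0.400 in ASO_L1, against AACS at 0.639, FDPS at 0.654, SCAP at 0.603 and FASN at 0.514 in SO_L1. SC5D, STARD4 and AACS were thus called the same way in both libraries. In ASO_L1, 11 of 30 members were higher without shared barcodes, against 41.8% of all genes, HMGCS1 moving to 2.63 there against 1.48 with all cells. Without 8C-like cells, 2 members were lower in ASO_L1, against 9.38% of all genes.

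Levels were also followed over finer steps of mitochondrial share. In ASO_L1 the synthesis sum was 907 CPM below 0.1%, 944 CPM from 0.1 to 0.2%, and 834 CPM (829 to 839) from 5 to 7%. It was 1024 CPM (1019 to 1029) from 7 to 10% and 1186 CPM (1175 to 1198) from 10 to 15%. In SO_L1 it was 1256 CPM below 0.1%, 1361 CPM (1346 to 1376) from 5 to 7%, 1400 CPM from 7 to 10% and 1416 CPM (1405 to 1426) from 10 to 15%. The ASO_L1 sum was lower than that of SO_L1 in each step, and the gap was smaller from 10 to 15% than from 5 to 7%. DHCR7 in ASO_L1 stood at 7.37 CPM (6.69 to 8.09) below 0.1% and between 6.26 and 7.13 CPM in the 5 steps from 0.1 to 3%, with intervals that overlapped. It stood at 9.82 CPM (8.72 to 11.0) from 3 to 5%, 12.8 CPM (12.2 to 13.4) from 5 to 7%, 20.1 CPM from 7 to 10% and 30.3 CPM (28.5 to 32.2) from 10 to 15%. In SO_L1 it stood at 37.0 CPM below 0.1%, 40.6 CPM from 5 to 7% and 47.6 CPM from 10 to 15%. Within ASO_L1 the level of DHCR7 was thus higher in each step from 3 to 15% than in the one before, and it was 25.5 CPM (20.3 to 31.5) in the 114 cells from 15 to 20%.

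**Figure D3:**
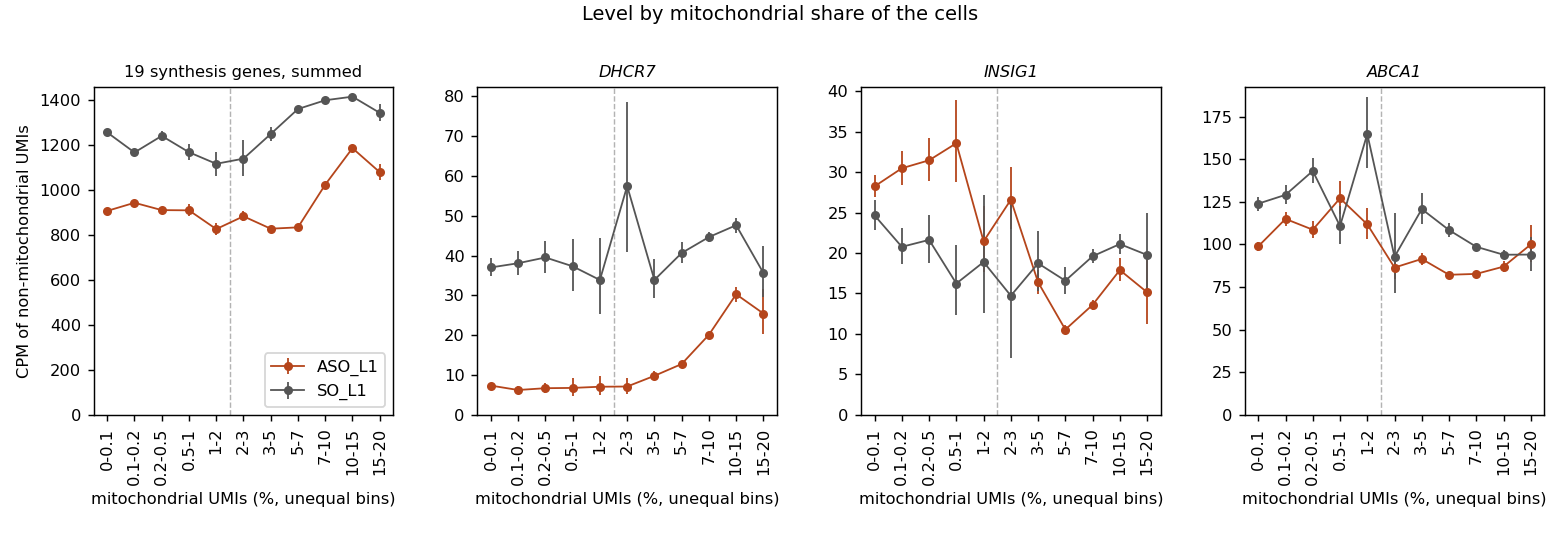
Level (CPM) of the summed synthesis genes, DHCR7, INSIG1 and ABCA1 by mitochondrial share of UMIs (unequal bins with at least 20 cells) in ASO_L1 and SO_L1, with 95% counting intervals. The ASO_L1 synthesis sum stands at 834 CPM from 5 to 7% and at 1186 CPM from 10 to 15%, and SO_L1 lies above it in each bin.

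The series concerns the 8C state, so the members were read in cells with UMIs of at least 3 of 11 8C markers. Below 2% there were 393 such 8C-like cells in ASO_L1 and 25 in SO_L1, and the comparison was made within ASO_L1. Depth was alike, with medians of 47951 UMIs in 8C-like and 44407 UMIs in other cells. Of the 30 members, 2 were higher and 9 lower in 8C-like cells, against 11.9% higher and 26.0% lower among all genes. With 5 markers in place of 3, 1 was higher and 15 were lower, against 12.8% and 30.9% of all genes.

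DHCR7 had 36 UMIs in 8C-like cells and 760 UMIs in other cells, or 1.76 and 8.10 CPM, a ratio of 0.217 (0.151 to 0.303). TM7SF2 stood at 4.84 CPM in 8C-like and 19.0 CPM in other cells, a ratio of 0.254 (0.205 to 0.311), and FDFT1 at 25.5 and 72.9 CPM, a ratio of 0.349 (0.319 to 0.382). The other members lower in 8C-like cells were AACS at 0.387, ABCA1 at 0.544, SREBF2 at 0.577, INSIG2 at 0.629, ABCG1 at 0.636 and PMVK at 0.660. The direction of ABCG1 reversed with 8C-like cells from 2 genes, and that of PMVK with cells thinned to 8000 UMIs. IDI1 stood at 114 CPM in 8C-like and 59.6 CPM in other cells, a ratio of 1.91 (1.82 to 2.01), and INSIG1 at 40.7 and 26.7 CPM, a ratio of 1.53 (1.41 to 1.65). The synthesis sum was 812 CPM in 8C-like and 935 CPM in other cells, a ratio of 0.868 (0.854 to 0.882).

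Per cell, synthesis transcripts were few at matched depth. Of 8000 UMIs, mitochondrial ones included, the median cell below 2% held 7 synthesis UMIs in ASO_L1 (quartiles 5 and 9) and 8 in SO_L1 (6 and 11). In the other class it held 6 in ASO_L1 (4 and 9) and 10 in SO_L1 (7 and 13). Cells of the second class have fewer of the 8000 left for other genes. Thinning left out 520 ASO_L1 and 649 SO_L1 cells. The variance of the count over its mean was 3.15 in ASO_L1 and 5.60 in SO_L1 below 2%, and 2.12 and 1.91 at 2% or more. The spread between cells was thus widest below 2% in SO_L1.

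**Figure D4:**
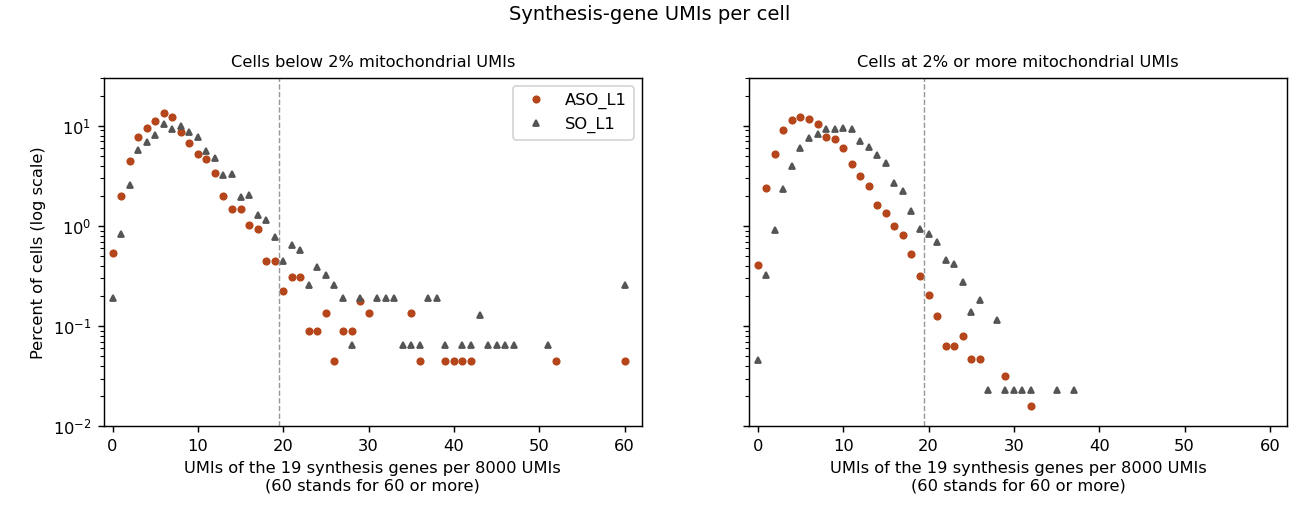
Share of cells (percent, log axis) by summed synthesis UMIs per cell thinned to 8000 UMIs, in ASO_L1 and SO_L1, below 2% and at 2% or more mitochondrial UMIs. The tail is longest in SO_L1 below 2%, where 5.41% of cells have 20 or more, against 2.15% in ASO_L1.

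A tail of cells held many synthesis UMIs. A border of 20 UMIs of 8000 was set after the counts were seen, and it cuts a range and not a cell type. Below 2% it took in 48 of 2235 ASO_L1 cells (2.15%, 1.59% to 2.84%) and 84 of 1554 SO_L1 cells (5.41%, 4.33% to 6.65%). In the other class it took in 43 of 6329 ASO_L1 cells (0.679%, 0.492% to 0.914%) and 142 of 4350 SO_L1 cells (3.26%, 2.76% to 3.84%). Near it, with 18 to 21 UMIs, lay 32 ASO_L1 and 47 SO_L1 cells below 2%. At 25 UMIs the shares were 1.12% and 3.09% below 2%.

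Since the 19 synthesis genes chose these cells, their ratios over the rest only describe the choice. Below 2%, HMGCS1 stood at 8.39 times the rest in ASO_L1 and 10.4 times in SO_L1, MSMO1 at 7.46 and 6.74, SQLE at 5.42 and 6.00, and FDFT1 at 5.34 and 4.46. PMVK stood at 0.985 and 0.974, so not every synthesis gene shared in the choice.

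The 11 members outside synthesis played no part in the choice. Below 2%, 4 of 11 were higher in the cells with 20 or more and 1 lower in each library, against 7.26% higher and 4.17% lower of all genes in ASO_L1 and 6.27% and 7.19% in SO_L1. INSIG1 stood at 134 CPM in these cells and 27.3 CPM in the rest in ASO_L1, a ratio of 4.90 (4.31 to 5.56), and at 139 and 15.6 CPM in SO_L1, a ratio of 8.96 (7.98 to 10.1). STARD4 stood at 56.9 and 14.4 CPM in ASO_L1, a ratio of 3.95, and at 62.2 and 13.3 CPM in SO_L1, a ratio of 4.67. SCD had ratios of 2.34 in ASO_L1 and 2.50 in SO_L1, and SREBF2 2.16 and 1.90. All of these are known SREBP targets or part of its control, but so are SREBF1, SCAP, INSIG2 and FASN, which were not called. The cause was not tested.

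ABCA1 went the other way. It stood at 64.0 CPM in the cells with 20 or more and 106 CPM in the rest in ASO_L1, a ratio of 0.604 (0.503 to 0.720), and at 69.4 and 130 CPM in SO_L1, a ratio of 0.536 (0.467 to 0.612). ABCG1 had 10 and 18 UMIs in these cells of ASO_L1 and SO_L1, with ratios of 0.617 (0.295 to 1.14) and 0.661 (0.388 to 1.06), so at this depth no difference was detectable. SREBF1, SCAP, INSIG2, NR1H2 and FASN were called in neither library.

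In the class at 2% or more, 5 of 11 members outside synthesis were higher in ASO_L1 and 0 lower, against 6.13% and 4.17% of all genes. In SO_L1, 3 of 11 were higher and 0 lower, against 3.11% of all genes called in either direction. INSIG1 had ratios of 3.15 in ASO_L1 and 2.47 in SO_L1, STARD4 2.54 and 1.96, and SCD 1.60 and 1.61, called higher in both. SREBF2 had 1.72 in ASO_L1 and 1.39 in SO_L1. ABCG1, an exporter, was called higher in ASO_L1 at 2.12 (1.25 to 3.36), on 18 UMIs in the cells with 20 or more, and stood at 1.07 (0.788 to 1.43) in SO_L1. ABCA1 had ratios of 1.02 (0.878 to 1.17) in ASO_L1 and 1.02 (0.940 to 1.10) in SO_L1.

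Other genes moved with these cells. Of 9 other fatty acid genes below 2%, 5 were higher in ASO_L1 and 3 in SO_L1, against 7.26% and 6.27% of all genes. ACSS2 was among them, at 3.15 in ASO_L1 and 5.80 in SO_L1. At 2% or more, 5 were higher in ASO_L1, against 6.13%, and 1 in SO_L1. Of 11 uptake and handling genes below 2%, 3 were higher and 0 lower in ASO_L1, and 2 higher and 1 lower in SO_L1. At 2% or more, 4 were higher and 1 lower in ASO_L1, and 0 called in SO_L1. Of 11 stress genes, 3 were higher in ASO_L1 and 7 in SO_L1 below 2%, with DDIT3 at 1.54 and 4.46, while at 2% or more 11 of 11 were lower in ASO_L1 with DDIT3 at 0.183. In SO_L1 at 2% or more, 1 stress gene was higher and 1 lower, with DDIT3 at 2.17 and the sum at 251 CPM in the cells with 20 or more and 253 CPM in the rest. Below 2%, 6 of 10 measured 8C markers were lower in ASO_L1 and 0 higher, and 2 of 8 were lower in SO_L1 and 1 higher. Of 7 pluripotency markers, 3 were higher below 2% in ASO_L1, with a sum of 2418 CPM in the cells with 20 or more and 1704 CPM in the rest, and 0 in SO_L1, with 2689 and 2731 CPM. Median depth was 38474.5 UMIs in the cells with 20 or more and 48819 UMIs in the rest in ASO_L1, and 36871 and 36959.5 UMIs in SO_L1. The part of these in the result was not tested.

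**Figure D5:**
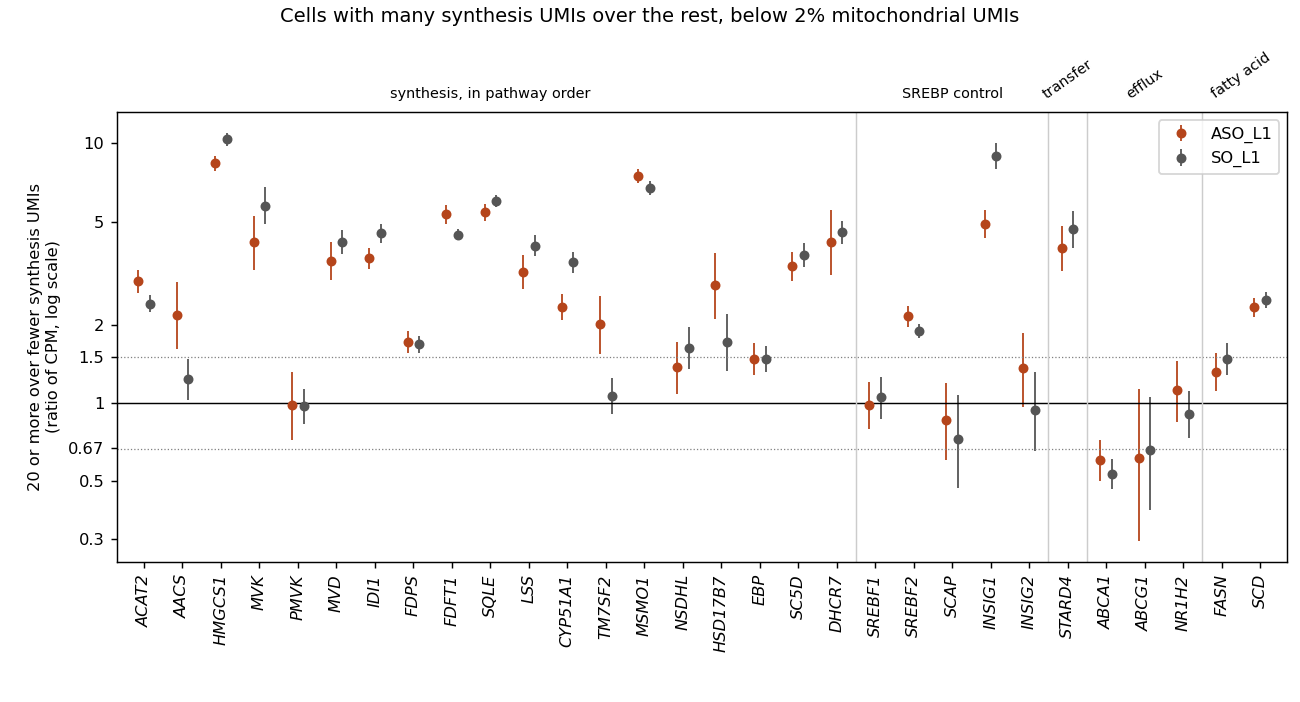
Ratio (log axis) of cells with 20 or more synthesis UMIs of 8000 over the rest of the same library, below 2% mitochondrial UMIs, for each member in ASO_L1 and SO_L1, with 95% counting intervals. The synthesis genes chose the cells. Among the others INSIG1 lies highest, at 4.90 and 8.96, and ABCA1 lies at 0.604 and 0.536.

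Across cells below 2%, the members with the highest Pearson correlation with the other synthesis genes were HMGCS1 (0.33 in 2235 ASO_L1 cells and 0.64 in 1554 SO_L1 cells), SQLE (0.38 and 0.63) and MSMO1 (0.40 and 0.56). INSIG1, outside synthesis, had 0.23 and 0.50. These describe thinned cells of 1 library each, which share their depth and their mitochondrial class. PMVK had 0.01 and −0.02.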

How the data were processed

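The deposited count matrices (raw UMIs for each barcode) came from the authors' run of Cell Ranger 7.1.0 against hg38, per the submitters' processing notes and file headers. The sources used here do not give the annotation release, strand use, intronic counting or cell calling. Cells needed 1000 genes and under 20% mitochondrial UMIs. UMIs were summed per library and class and divided by non-mitochondrial totals (CPM). Ratios carry exact conditional binomial (Clopper-Pearson) 95% intervals, checked on simulated data, and levels exact Poisson intervals. PCR and cell sampling are not covered, so intervals show counting error only. Genes needed 50 UMIs over both sides. Called means 1.5-fold with an interval leaving out 1. Shares used cells thinned to 8000 UMIs. No doublet caller was run, and an alternative left out the 5% of cells with most UMIs. TMM factors came from edgeR 4.0.16. The members and lists were chosen with earlier results of these data known. All 30 members are named, and other lists by their 2 largest ratios, their 2 members with most UMIs and, where 5 or fewer were called, those, except 1 gene that is not reported here. Alternatives were no or a stricter cell filter, another class border, other totals, weights and minimums, thinning, and leaving out shared barcodes or 8C-like cells. The 8C-like variants, the border of 20 UMIs and its variants were chosen after seeing the data. Gene positions come from GENCODE 29 and promoters from RefSeq GRCh38.p14. Computation used numpy 2.4.6, scipy 1.17.1, pandas 2.3.3 and matplotlib 3.10.9.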

Additional observations from a re-analysis of the deposited data

Results flagged for a closer look

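Several members had ratios of ASO_L1 over SO_L1, or of the class below 2% over that at 2% or more, on opposite sides of 1 in the groups compared. These differences have 1 library per group and were not tested. INSIG1 had an ASO_L1 over SO_L1 ratio of 1.30 below 2% and 0.685 at 2% or more, and the quotient of these is 1.90 (counting interval 1.76 to 2.05). FASN had 1.15 below 2% and 0.641 at 2% or more, a quotient of 1.79 (1.70 to 1.88), though its value below 2% was 0.826 without shared barcodes and 0.969 with each cell weighted alike. NSDHL had 1.17 below 2% and 0.687 at 2% or more, a quotient of 1.70 (1.58 to 1.82), and below 2% over 2% or more it stood at 1.29 in ASO_L1 and 0.760 in SO_L1, the same quotient of 1.70. MVK below 2% over 2% or more stood at 1.15 in ASO_L1 and 0.735 in SO_L1, a quotient of 1.56 (1.41 to 1.73), and its ASO_L1 value was 0.989 with TMM scaling.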

How the results depend on the processing

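No paired analysis was possible because each group has 1 library and the replicate numbers only name samples. Of the settings tried for the members' ratios, 2483 values kept their direction and their side of the fold, 51 passed it, 65 no longer passed it, 83 were called in neither setting and lay on the other side of 1, and 2 called values reversed. These 2, both in 8C-like over other ASO_L1 cells, were PMVK at 1.0 with cells thinned to 8000 UMIs and ABCG1 at 1.09 with 8C-like cells from 2 genes. Settings of no minimum or a minimum of 200 UMIs could not change any member, as each had more, and their values count among those kept. At 2-fold, fewer pass by construction. No share of all genes was worked out at 2-fold, so these counts describe the members only. For ASO_L1 over SO_L1, members lower were then 3 over all kept cells, 5 below 2% and 3 at 2% or more, synthesis genes lower 3, 5 and 3, and members higher below 2% 0. Below 2% over 2% or more, 2 members were then higher and 2 lower in ASO_L1, and 0 and 0 in SO_L1, and in 8C-like cells 0 were higher and 4 lower. Without shared barcodes, 16 members were lower over all kept cells, 14 synthesis genes were lower at 2% or more, and 11 members were higher below 2% than at 2% or more in ASO_L1. Without 8C-like cells, 2 members were lower below 2% in ASO_L1. In SO_L1, 2 were lower with mitochondrial genes in the total and 1 higher with TMM scaling. With 8C-like cells from 5 genes, 1 member was higher and 15 lower. With the border at 25 synthesis UMIs, 0 members outside synthesis were lower in ASO_L1 below 2%. For this border and the SO_L1 settings, no share of all genes was worked out either. The causes were not tested. Depth limits members with few UMIs, such as ABCG1 and DHCR7 in small sets of cells.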
